A study of Mus musculus with 5 samples.

Results

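The phase II conjugation enzymes measured here were 49 genes of 28090 gene names on the array, chosen by name alone: every gene whose name in the scanner files began with Gst, Mgst, Ugt or Sult followed by the class letter or number of its family. They comprised 20 cytosolic glutathione S-transferases (Gst), 3 microsomal glutathione S-transferases (Mgst), 15 UDP-glucuronosyltransferases (Ugt) and 11 sulfotransferases (Sult). The rule on names uses no measured value.

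Liver RNA came from male mice of C57BL/6J, an inbred strain, aged 25 weeks in every group. HFHFr denotes a diet high in both fat and fructose. The HFHFr-FA group ate HFHFr chow for 16 weeks, followed by 4 weeks in which all-trans retinoic acid was added to that chow. The HFHFr-NA group had the same 16 weeks, followed by 4 weeks of normal chow with all-trans retinoic acid added. The HFHFr-N group also had these 16 weeks, followed by 4 weeks of normal chow alone. The HFHFr-F group stayed on HFHFr chow for all 20 weeks, and the Control group was untreated. All-trans retinoic acid is the ligand that vitamin A provides for the retinoic acid receptors of the nucleus, and the sources used here give no dose. Per the labels, RNA of 5 mice was pooled for each group, and each pool was hybridised to 1 array. There was therefore no replicate of any group, no test between groups could be run, and "higher" and "lower" below describe these pools alone.

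Phase II enzymes attach a polar group to drugs, pollutants and endogenous molecules, often after oxidation by cytochromes P450, and the products leave the cell through export pumps. Gst and Mgst enzymes add glutathione to electrophiles, Ugt enzymes add glucuronic acid or another sugar, and Sult enzymes add sulfate. Hepatocytes are a main site of all of these reactions, and several of the mouse genes are known to differ between male and female liver and to respond to the receptors NRF2, CAR and PXR.

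Close relatives in these families share sequence, so the probe decides what a value stands for. The longest run shared between probes of any pair of these genes was in Gsta1 and Gsta2, and both probes are shown for that reason, with the 20 identical bases in capitals. The end of the Gsta1 probe and the start of the Gsta2 probe overlapped over 28 bases with 1 mismatch, and the RefSeq gene table lists both probes' transcripts under Gm10639, Gsta1 and Gsta2. The probe of Gsta4 listed Gsta4 alone and was spotted 10 times on every array. All positions are those of the mm9 build in the file headers, and each probe is 60 bases long. The Gsta1 probe lies on the plus strand at chr9:78083844-78087325 (a span longer than the probe itself), the Gsta2 probe on the minus strand at chr9:78181644-78181703 and the Gsta4 probe on the plus strand at chr9:78046172-78047344.
Gsta1: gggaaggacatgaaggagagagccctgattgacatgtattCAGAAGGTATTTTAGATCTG
Gsta2: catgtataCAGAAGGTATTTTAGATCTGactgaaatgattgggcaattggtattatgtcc
Gsta4: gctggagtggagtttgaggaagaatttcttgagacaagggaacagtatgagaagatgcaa

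Of the 49 genes, 42 were well above background on all 5 arrays. Mgst2, Sult1e1 and Sult3a1 were well above background on some arrays, and Gstt4, Sult2b1, Sult6b1 and Ugt8a on none. The last 4 genes have no ratio below. Values are given as scaled signal, the processed signal of the gene's brightest probe divided by the 75th percentile of that array, so that 1 marks the 75th percentile. Signals of different probes are not compared, because probes differ in brightness. A ratio is the log2 scaled signal of the first-named pool minus that of the second, and a gene is counted as higher or lower where the pools stood at least 2-fold apart. Where only 1 of the pools measured the gene, the ratio is called a bound. It depends on the background correction and is not a strict minimum. The 10 spots of Gsta4 had a standard deviation (SD) of 0.0541 to 0.104 on the log2 scale within an array, and over the probes with repeated spots the median SD was 0.0704 to 0.0863. That spread does not include variation from mouse to mouse or from array to array.

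Between 46.7% and 49.4% of the non-control spots of an array were well above background. The HFHFr-FA array was alone on its slide and the other 4 arrays shared another, so any effect of the slide and that of the group cannot be told apart wherever HFHFr-FA is compared. The liver label was checked with 7 hepatocyte markers, albumin among them. Their summed scaled signal was 4231 in HFHFr-FA, 5160.2 in HFHFr-NA, 4937 in HFHFr-N, 4128 in HFHFr-F and 4917 in Control, and 0 of 7 reached 2-fold in any comparison. In whole liver RNA, fewer cells of a type and less RNA per cell cannot be told apart.

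Retinoic acid given with the HFHFr diet was described by HFHFr-FA against HFHFr-F. Of 45 measured genes, 12 were at least 2-fold lower and 1 was at least 2-fold higher in HFHFr-FA than in HFHFr-F, against 2.87% lower and 2.72% higher among all 14723 genes measured. The 12 were Gsta1, Gsta2 and Gsta4, the mu-class genes Gstm1, Gstm2, Gstm3, Gstm4 and Gstm6, Mgst2 and Mgst3, Ugt1a9 and Sult1c2. The one higher gene was Sult5a1. The median log2 ratio of the 45 genes was -0.50, and that of all genes was 0.03. After normexp background correction and quantile normalization 7 genes were lower, and Gsta4 (-0.88), Gstm4 (-0.87), Gstm6 (-0.82), Mgst2 (-0.26) and Ugt1a9 (-0.78) were under 2-fold.

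**Figure D1:**
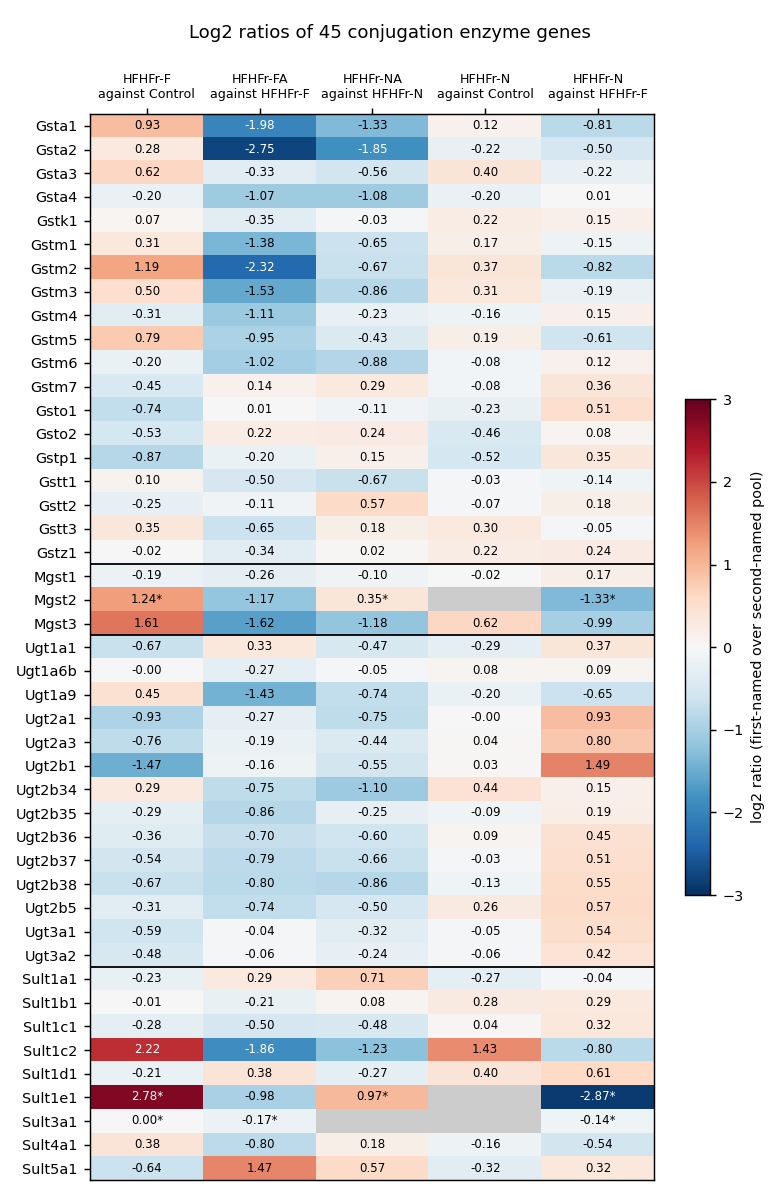
Log2 ratio of each of the 45 conjugation enzyme genes measured in at least 1 comparison (rows, grouped into Gst, Mgst, Ugt and Sult by black lines) in 5 comparisons of pools (columns), first-named pool over second-named pool, 1 array per pool. Blue is lower, red is higher, a star marks a bound where only 1 pool measured the gene, and grey marks genes that neither pool measured. Blue cells gather in the alpha and mu Gst rows of the column of HFHFr-FA against HFHFr-F, where Gsta2 stands at -2.75.

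The alpha-class enzymes conjugate products of lipid peroxidation and many drugs. Gsta2 had a scaled signal of 2.0 in HFHFr-FA, 2.63 in HFHFr-NA, 9.49 in HFHFr-N, 13.4 in HFHFr-F and 11.0 in Control. Gsta1 had 14.1 in HFHFr-FA, 12.6 in HFHFr-NA, 31.9 in HFHFr-N, 55.8 in HFHFr-F and 29.3 in Control. Both pools given retinoic acid were the lowest for each of these genes. Gsta2 was 6.71-fold lower in HFHFr-FA than in HFHFr-F (log2 ratio -2.75) and 3.60-fold lower in HFHFr-NA than in HFHFr-N (-1.85). Gsta1 was 3.95-fold lower in HFHFr-FA than in HFHFr-F (-1.98) and 2.52-fold lower in HFHFr-NA than in HFHFr-N (-1.33). Because of the shared run printed above, these probes may report partly the same transcripts, and the pair was not separated here.

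Gsta4, whose product clears reactive aldehydes of lipid peroxidation such as hydroxynonenal, had a probe of its own. Its scaled signal was 1.11 in HFHFr-FA, 1.11 in HFHFr-NA, 2.35 in HFHFr-N, 2.33 in HFHFr-F and 2.69 in Control. The pools fell into the 2 with retinoic acid and the 3 without, and the log2 ratio was -1.07 for HFHFr-FA against HFHFr-F and -1.08 for HFHFr-NA against HFHFr-N. Both differences exceed the SD between the 10 spots of the gene on any array. Gsta3, the abundant alpha-class enzyme that detoxifies aflatoxin in mouse liver, was under 2-fold apart. It had 366 in HFHFr-FA, 268 in HFHFr-NA, 395 in HFHFr-N, 460.4 in HFHFr-F and 300.1 in Control, with log2 ratios of -0.33 and -0.56 for retinoic acid on the HFHFr and on the normal diet. A second Gsta3 probe gave -0.52 and -0.70.

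The mu-class genes lie side by side on chromosome 3, and their enzymes conjugate a broad range of electrophiles. Gstm2 had 6.52 in HFHFr-FA, 11.7 in HFHFr-NA, 18.5 in HFHFr-N, 32.6 in HFHFr-F and 14.3 in Control. Gstm1 had 307 in HFHFr-FA, 462 in HFHFr-NA, 723 in HFHFr-N, 800.0 in HFHFr-F and 644 in Control. Gstm3 had 88.2 in HFHFr-FA, 123 in HFHFr-NA, 223 in HFHFr-N, 254 in HFHFr-F and 180.1 in Control. All 3 genes had their lowest signal in HFHFr-FA and their highest in HFHFr-F. In HFHFr-FA against HFHFr-F the log2 ratio was -2.32 for Gstm2 (5.01-fold lower), -1.53 for Gstm3 and -1.38 for Gstm1. The dimmer of the probes of Gstm1 gave -1.62.

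Among the other mu-class genes, Gstm4 and Gstm6 were also lower in HFHFr-FA than in HFHFr-F, with log2 ratios of -1.11 and -1.02. Gstm5 stood just inside 2-fold at -0.95, and Gstm7 had a ratio of 0.14. In HFHFr-NA against HFHFr-N, 0 of the 7 mu-class genes reached 2-fold. There Gstm6 had -0.88, Gstm3 -0.86, Gstm2 -0.67, Gstm1 -0.65, Gstm5 -0.43, Gstm4 -0.23 and Gstm7 0.29. Gstm7 was thus the one mu-class gene above 0 for retinoic acid on both diets, with a brightest probe that listed no RefSeq gene. Its second probe, which listed Gstm7, gave -0.16 on the HFHFr diet and -0.09 on the normal diet. The direction of Gstm7 thus depended on the probe.

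**Figure D2:**
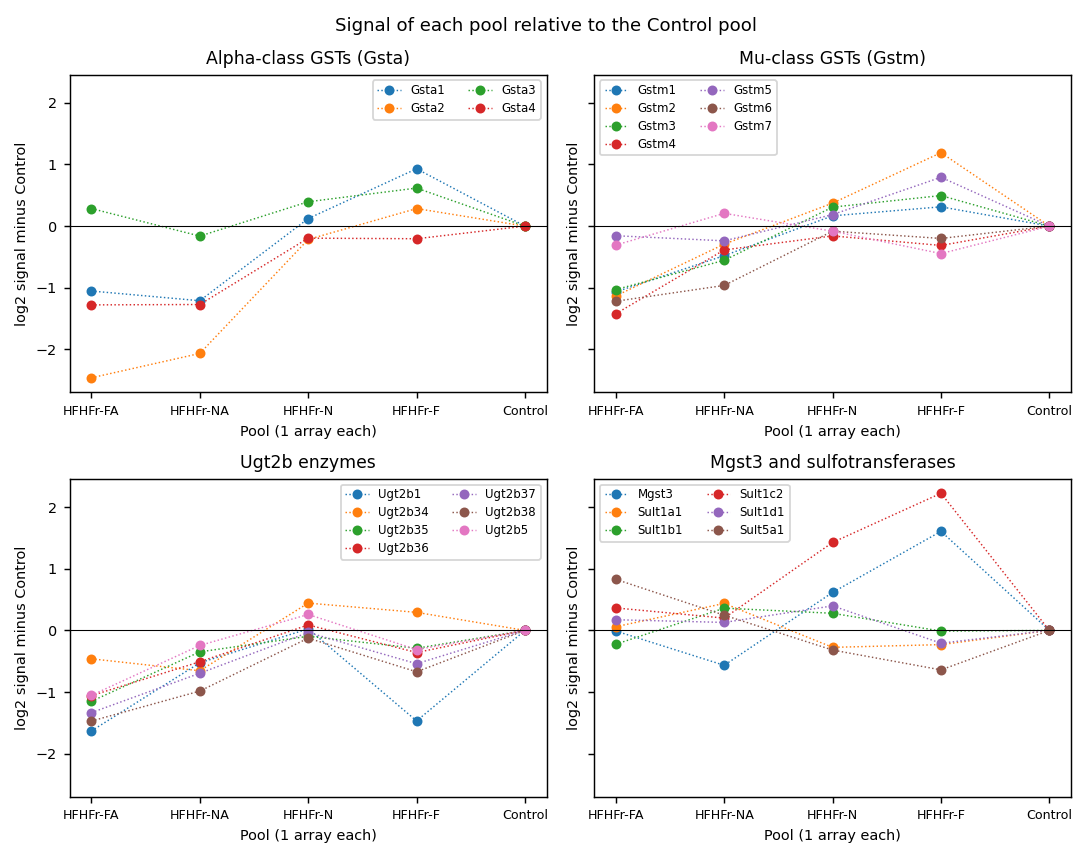
Log2 scaled signal of each pool minus that of the Control pool (vertical axis) in the 5 pools (horizontal axis, 1 array each), for alpha-class Gst, mu-class Gst, Ugt2b genes, and Mgst3 with sulfotransferases. Dotted lines join the points of 1 gene and imply no order of the pools. Gsta1, Gsta2 and Gsta4 lie below -1 in both HFHFr-FA and HFHFr-NA, the Ugt2b genes lie below 0 in both, and Sult1c2 and Mgst3 are highest in HFHFr-F.

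The remaining Gst classes have more specialised roles. Gstp1 encodes the pi-class enzyme, known as one of the most abundant Gst proteins of male mouse liver. Its brightest probe had 426 in HFHFr-FA, 690.4 in HFHFr-NA, 624 in HFHFr-N, 489.9 in HFHFr-F and 893 in Control. Control was the highest pool. The log2 ratio was -1.07 for HFHFr-FA against Control, -0.87 for HFHFr-F against Control and -0.20 for HFHFr-FA against HFHFr-F. The 2 probes of Gstp1 are shown because they differ in what they list. The brighter is on the minus strand at chr19:4035486-4035545 and listed Gstp1 and Gstp2, and the dimmer is on the minus strand at chr19:4035908-4036723 and listed Gstp1 alone.
Gstp1, brighter probe: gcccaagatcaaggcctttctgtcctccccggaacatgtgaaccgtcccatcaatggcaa
Gstp1, dimmer probe: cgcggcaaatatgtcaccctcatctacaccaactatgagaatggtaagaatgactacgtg
The dimmer probe gave -1.18 for HFHFr-F against Control and -1.32 for HFHFr-FA against Control, so Gstp1 passed 2-fold in the first of these with that probe and not with the other.

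Gsto1, an omega-class enzyme that reduces dehydroascorbate, had 42.8 in HFHFr-FA, 56.1 in HFHFr-NA, 60.4 in HFHFr-N, 42.4 in HFHFr-F and 70.9 in Control. Both pools that ended on the HFHFr diet were the lowest. Gsto2, its relative, had ratios between -0.53 and 0.24 in the 5 main comparisons. Of the theta-class genes, whose enzymes act on small halogenated compounds, Gstt1 had 6.18 in HFHFr-FA, 4.99 in HFHFr-NA, 7.96 in HFHFr-N, 8.76 in HFHFr-F and 8.15 in Control. Gstt1 was lower with retinoic acid on both diets, by less than 2-fold (-0.50 on the HFHFr diet and -0.67 on the normal diet). Gstt2 had opposite signs, -0.11 for HFHFr-FA against HFHFr-F and 0.57 for HFHFr-NA against HFHFr-N. Gstz1, which isomerises maleylacetoacetate in tyrosine breakdown, and Gstk1, a kappa-class enzyme of mitochondria and peroxisomes, had ratios of -0.34 and -0.35 in HFHFr-FA against HFHFr-F, and of 0.02 and -0.03 in HFHFr-NA against HFHFr-N.

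The microsomal enzymes sit in the membrane and also reduce lipid hydroperoxides. Mgst3 had 1.75 in HFHFr-FA, 1.19 in HFHFr-NA, 2.70 in HFHFr-N, 5.37 in HFHFr-F and 1.76 in Control. It was 3.05-fold higher in HFHFr-F than in Control (log2 ratio 1.61), 3.07-fold lower in HFHFr-FA than in HFHFr-F (-1.62) and 2.27-fold lower in HFHFr-NA than in HFHFr-N (-1.18). The HFHFr-F pool enters the first and second of these ratios. Its brightest probe, which listed Mgst3 alone, is on the minus strand at chr1:169305625-169307435 and is shown because it carries the widest range among the microsomal enzymes measured on all arrays.
Mgst3: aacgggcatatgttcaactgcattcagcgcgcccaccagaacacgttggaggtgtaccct
A dimmer probe named Mgst3 gave 1.60, -1.74 and -1.21 for the same comparisons, but it had no genome position and listed no RefSeq gene. Another was not well above background on any array. Mgst2, which can make a leukotriene from its precursor, had 0.0910 in HFHFr-FA, 0.103 in HFHFr-NA, 0.0810 in HFHFr-N, 0.204 in HFHFr-F and 0.0584 in Control. It was not well above background in HFHFr-N and Control. As bounds, HFHFr-F was 2.37-fold higher than Control, and HFHFr-N was 2.52-fold lower than HFHFr-F. HFHFr-FA was 2.24-fold lower than HFHFr-F. After normexp background correction and quantile normalization none of these Mgst2 differences reached 2-fold, with log2 ratios of 0.54 for HFHFr-F against Control, -0.29 for HFHFr-N against HFHFr-F and -0.26 for HFHFr-FA against HFHFr-F. Mgst1, a bright and broadly active member, had ratios between -0.26 and 0.17 in the 5 main comparisons.

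**Figure D3:**
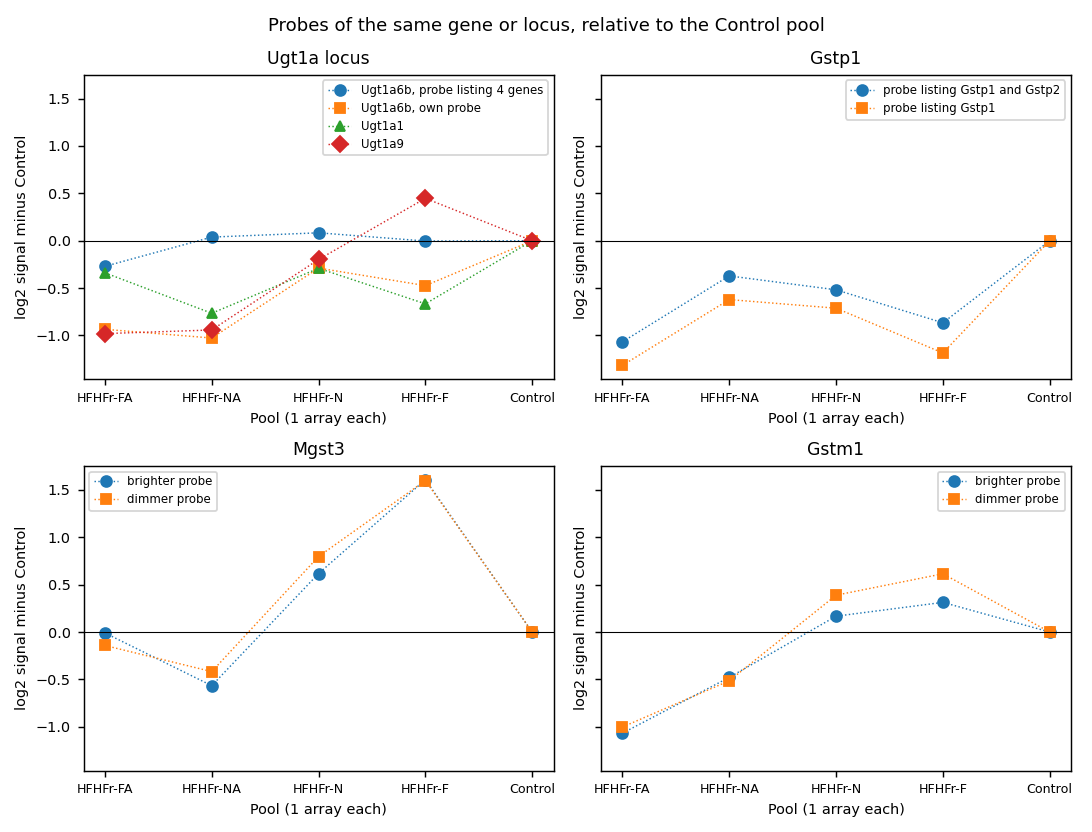
Log2 scaled signal of each pool minus that of Control (vertical axis) in the 5 pools (horizontal axis, 1 array each) for separate probes of the Ugt1a locus, Gstp1, Mgst3 and Gstm1. The probes of Mgst3, of which the dimmer lists no RefSeq gene, lie close together in each pool. The Ugt1a6b probe that lists 4 genes lies between -0.27 and 0.08, and the Ugt1a6b probe that lists Ugt1a6b alone reaches -1.03 in HFHFr-NA.

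Ugt genes were lower in small steps. Of 14 measured, 13 had a ratio below 0 in HFHFr-FA against HFHFr-F, where 1 was at least 2-fold lower. In HFHFr-NA against HFHFr-N 14 had a ratio below 0, and 1 was at least 2-fold lower. The shares of all genes at least 2-fold lower in these comparisons were 2.87% and 1.36%. Among all genes measured on both arrays, 6537 were below 0 and 7080 above 0 in the first of these comparisons, and 6421 below and 7204 above in the second. Ugt1 genes share their last exons and differ in the first. The brightest Ugt1a6b probe listed Ugt1a10, Ugt1a6a, Ugt1a6b and Ugt1a7c, and had 221 in HFHFr-FA, 274 in HFHFr-NA, 282 in HFHFr-N, 266 in HFHFr-F and 266 in Control. That probe stayed within 0.27 of Control on the log2 scale in every pool.

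The probes that listed 1 gene of this locus are shown because they separate its members. They lie on the plus strand of chromosome 1, at chr1:90108880-90108939 for Ugt1a1, chr1:90003830-90003889 for Ugt1a6b and chr1:89968031-89968090 for Ugt1a9.
Ugt1a1: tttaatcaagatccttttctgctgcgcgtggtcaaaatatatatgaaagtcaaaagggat
Ugt1a6b: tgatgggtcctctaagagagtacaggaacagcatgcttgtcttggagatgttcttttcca
Ugt1a9: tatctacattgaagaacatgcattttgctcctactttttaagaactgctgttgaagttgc
Ugt1a1, the enzyme that conjugates bilirubin, had 3.06 in HFHFr-FA, 2.28 in HFHFr-NA, 3.16 in HFHFr-N, 2.44 in HFHFr-F and 3.87 in Control. Ugt1a9, whose human counterpart conjugates bulky phenols, had 0.189 in HFHFr-FA, 0.194 in HFHFr-NA, 0.325 in HFHFr-N, 0.508 in HFHFr-F and 0.372 in Control. Ugt1a6b, a phenol-conjugating enzyme, had 0.259 in HFHFr-FA, 0.243 in HFHFr-NA, 0.406 in HFHFr-N, 0.357 in HFHFr-F and 0.496 in Control with its own probe. Ugt1a9 and Ugt1a6b were lowest in the 2 pools with retinoic acid, and Ugt1a1 was not. In HFHFr-FA against HFHFr-F the log2 ratio was -1.43 for Ugt1a9, -0.46 for Ugt1a6b and 0.33 for Ugt1a1. In HFHFr-NA against HFHFr-N the 3 had -0.74, -0.74 and -0.47 in the same order of genes.

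The Ugt2b enzymes conjugate steroids, bile acids and drugs, and 7 of their genes were measured on every array. All 7 had a ratio below 0 in HFHFr-FA against HFHFr-F, from -0.86 to -0.16 with a median of -0.75, and 0 of 7 reached 2-fold. All 7 were below 0 in HFHFr-NA against HFHFr-N, from -1.10 to -0.25 with a median of -0.60, and Ugt2b34 was 2.14-fold lower. Ugt2b34 had 6.20 in HFHFr-FA, 5.42 in HFHFr-NA, 11.6 in HFHFr-N, 10.5 in HFHFr-F and 8.53 in Control. Ugt2b5 had 41.2 in HFHFr-FA, 72.3 in HFHFr-NA, 102 in HFHFr-N, 69.0 in HFHFr-F and 85.6 in Control, and its ratios for retinoic acid were -0.74 on the HFHFr diet and -0.50 on the normal diet. Ugt2b38 had 39.0 in HFHFr-FA, 54.6 in HFHFr-NA, 98.9 in HFHFr-N, 67.8 in HFHFr-F and 107.9 in Control. For these genes both retinoic acid pools stood below Control. The Ugt2b38 probe listed Ugt2b37, Ugt2b38 and Ugt2b5, and the Ugt2b36 probe listed Ugt2b36 and Ugt2b37, so these values are not of 1 gene each.

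Ugt2b1 took another course. It had 6.20 in HFHFr-FA, 13.3 in HFHFr-NA, 19.5 in HFHFr-N, 6.94 in HFHFr-F and 19.2 in Control. Both pools that ended on the HFHFr diet, with or without retinoic acid, were low, and the Control and HFHFr-N pools were close to each other. Ugt2b1 was 2.77-fold lower in HFHFr-F than in Control (log2 ratio -1.47) and 2.82-fold higher in HFHFr-N than in HFHFr-F (1.49), and the HFHFr-F pool enters both. Its ratio was -0.16 for HFHFr-FA against HFHFr-F. Ugt2a1 and Ugt2a3 showed smaller differences of the same kind, -0.93 and -0.76 in HFHFr-F against Control. Ugt3a1 and Ugt3a2, whose human counterparts use sugars other than glucuronic acid, had ratios of -0.59 and -0.48 in HFHFr-F against Control, and of -0.04 and -0.06 in HFHFr-FA against HFHFr-F.

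The sulfotransferases differed in direction. Of 9 measured in HFHFr-FA against HFHFr-F, 1 was at least 2-fold higher, 1 at least 2-fold lower and 7 under 2-fold. The shares of all genes were 2.72% higher and 2.87% lower. Sult1c2, a phenol sulfotransferase, had 2.59 in HFHFr-FA, 2.31 in HFHFr-NA, 5.42 in HFHFr-N, 9.42 in HFHFr-F and 2.01 in Control. HFHFr-F was the highest pool and HFHFr-N lay between it and the other 3, which ranged from 2.01 to 2.59. Sult1c2 was 4.67-fold higher in HFHFr-F than in Control (log2 ratio 2.22), 2.69-fold higher in HFHFr-N than in Control (1.43), 3.63-fold lower in HFHFr-FA than in HFHFr-F (-1.86) and 2.34-fold lower in HFHFr-NA than in HFHFr-N (-1.23).

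Sult1e1 inactivates estrogens by sulfation. It had 0.320 in HFHFr-FA, 0.169 in HFHFr-NA, 0.0867 in HFHFr-N, 0.633 in HFHFr-F and 0.0924 in Control, and was not well above background in HFHFr-N and Control. As bounds against the signals of those pools, it was 6.85-fold higher in HFHFr-F than in Control and 3.47-fold higher in HFHFr-FA than in Control. As a bound too, HFHFr-N was 7.30-fold lower than HFHFr-F. HFHFr-FA stood 1.98-fold below HFHFr-F, just inside 2-fold. These bounds depend on the background correction and normalization. After normexp and quantile normalization the log2 ratio of Sult1e1 was 1.24 for HFHFr-F against Control, 0.76 for HFHFr-FA against Control and -1.16 for HFHFr-N against HFHFr-F. Sult5a1, of unsettled function, had 2.12 in HFHFr-FA, 1.42 in HFHFr-NA, 0.959 in HFHFr-N, 0.767 in HFHFr-F and 1.20 in Control. The 2 pools with retinoic acid were the highest for Sult5a1, with log2 ratios of 1.47 on the HFHFr diet (2.77-fold higher) and 0.57 on the normal diet. Sult1a1, the main phenol sulfotransferase of liver, had 103 in HFHFr-FA, 134 in HFHFr-NA, 82.0 in HFHFr-N, 84.6 in HFHFr-F and 99.3 in Control, with log2 ratios of 0.29 and 0.71 for retinoic acid on the HFHFr and on the normal diet. Sult4a1, a form known from brain, was under 2-fold in every comparison. Sult3a1 was well above background on 1 array, that of HFHFr-F, and its bounds were under 2-fold.

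Retinoic acid was set against no retinoic acid on both diets with 4 separate arrays, so that these ratios share no pool. Of 42 genes measured on all 4, 29 had a ratio below 0 on both diets, 4 above 0 on both and 9 opposite signs. Gstm7 was among those above 0 by its brightest probe alone. Signs over both diets together were not counted for all genes. Among all genes measured on both arrays, 6537 were below 0 and 7080 above on the HFHFr diet. On the normal diet 6421 of all genes were below 0 and 7204 above. On the normal diet 6 genes were at least 2-fold lower in HFHFr-NA than in HFHFr-N and 0 at least 2-fold higher, against 1.36% and 1.53% among all 14676 genes measured. Their median log2 ratio over 44 measured conjugation genes was -0.43, and that of all genes was 0.02. Gsta1, Gsta2, Gsta4, Mgst3 and Sult1c2 were at least 2-fold lower on both diets, which is 5 of the 11 such genes on the HFHFr diet and 5 of the 6 on the normal diet. The probes of Gsta1 and Gsta2 listed the same genes, so the 5 may not be 5 separate signals. Among all 13226 genes measured on the same 4 arrays, 33 were at least 2-fold lower on both diets, of 316 on the HFHFr diet and 108 on the normal diet. Of the 29 genes below 0 on both diets, 19 had the larger difference on the HFHFr diet, a count not made over all genes. Whether the 2 differences differ could not be tested with 1 array per group.

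**Figure D4:**
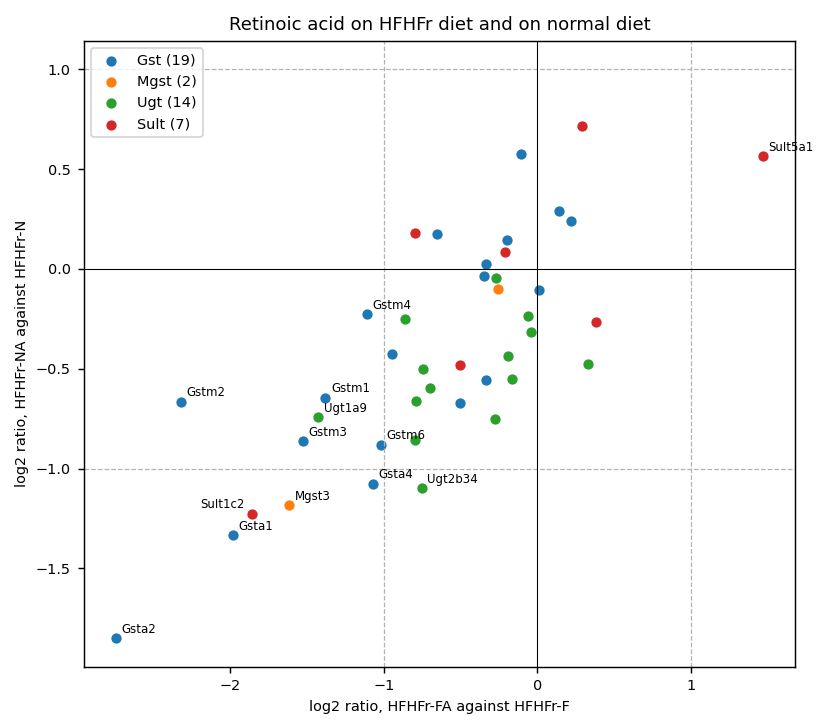
Log2 ratio of HFHFr-FA against HFHFr-F (horizontal axis) and of HFHFr-NA against HFHFr-N (vertical axis) for the 42 conjugation enzyme genes measured on all 4 arrays, 1 point per gene, coloured by family with the number of genes in the legend. Dashed lines mark 2-fold. The lower left quadrant holds 29 genes, and Gsta1, Gsta2, Gsta4, Mgst3 and Sult1c2 lie past both dashed lines.

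The HFHFr diet itself was described by HFHFr-F against Control. Here 5 of 45 conjugation genes were at least 2-fold higher and 1 was at least 2-fold lower, against 5.46% higher and 3.21% lower among all 14434 genes measured. The higher genes were Gstm2 (log2 ratio 1.19), Mgst3, Sult1c2 and, as bounds, Mgst2 and Sult1e1, and the lower one was Ugt2b1. Of 14 Ugt genes, 12 had a ratio below 0, where 7846 of all 13183 genes measured on both arrays were below 0. The median of the Ugt genes was -0.51, while the median of the 19 Gst genes was 0.07 and that of all genes -0.08. Gsta1 had 0.93, Gsta3 0.62, Gsta2 0.28 and Gsta4 -0.20, all under 2-fold.

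After the return to a normal diet few of all genes, and few conjugation genes, stood apart from Control. In HFHFr-N against Control, Sult1c2 was the one gene of 42 at least 2-fold higher and 0 were lower, against 1.17% and 0.824% of all genes, and the median was -0.01. In HFHFr-N against HFHFr-F, Ugt2b1 was the one gene at least 2-fold higher, and Mgst2 and Sult1e1 were lower as bounds. These shares, 2.22% higher and 4.44% lower, were near the 2.17% and 3.68% of all genes. Mgst3 stood just inside 2-fold in that comparison at -0.99. All 7 Ugt2b genes were above 0 there, with a median of 0.51, where the median of all genes was 0.10.

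Set against Control directly, the HFHFr-FA pool had 16 of 44 conjugation genes at least 2-fold lower and 1, Sult1e1, higher, against 1.96% lower and 4.49% higher among all genes. These were 9 Gst genes and 7 Ugt genes, 6 of them Ugt2b. Gsta2 was lowest at -2.46, followed by Ugt2b1 at -1.63 and Ugt2b38 at -1.47. With cyclic loess between arrays 10 of the genes were lower in place of 16. In HFHFr-NA against Control, Gsta2 (-2.07), Gsta4 (-1.27) and Gsta1 (-1.21) were the 3 genes of 44 at least 2-fold lower and 0 were higher, against 1.45% and 2.02% of all genes, and median centring gave 6 lower genes. Over the 42 genes measured on all arrays, HFHFr-FA was the lowest of the 5 pools for 28 genes, HFHFr-NA for 7, HFHFr-N for 1, HFHFr-F for 5 and Control for 1. The same count was not made over all genes, and HFHFr-FA was alone on its slide, so this count does not set these genes apart.

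**Figure D5:**
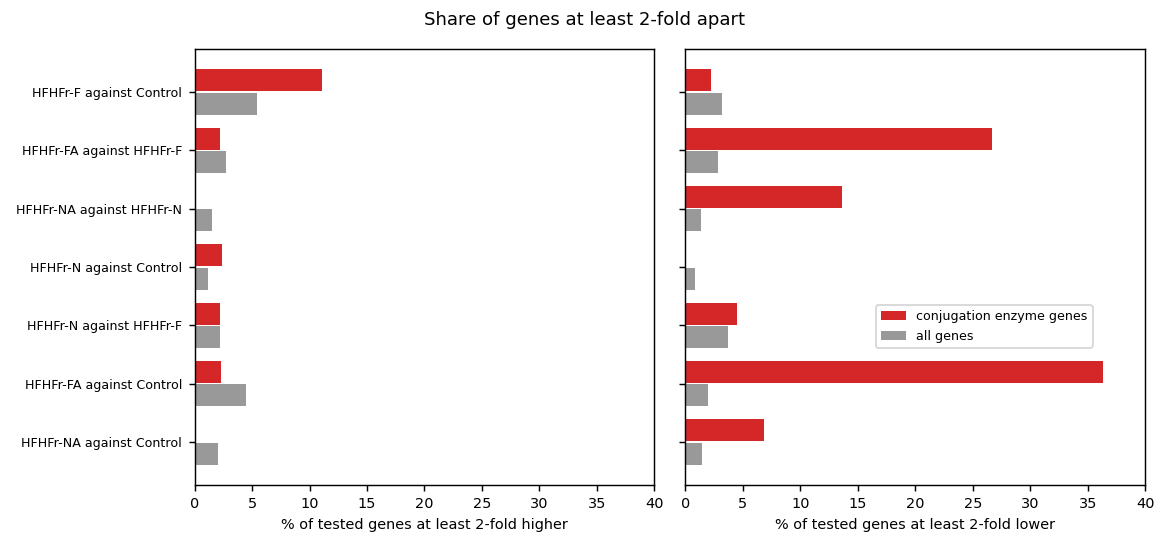
Percentage of measured genes at least 2-fold higher (left) and at least 2-fold lower (right) in the first-named pool, for the conjugation enzyme genes (red) and for all genes (grey), in 7 comparisons of pools with 1 array each. The red bar is longest for lower genes in HFHFr-FA against Control, 16 of 44, where the grey bar stands at 1.96%.

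Genes that supply the conjugation reactions were followed as lists. UDP-glucuronic acid, the sugar donor of the Ugt enzymes, is made by Ugp2 and Ugdh. Ugp2 had 16.0 in HFHFr-FA and 32.4 in HFHFr-F (log2 ratio -1.02), and Ugdh had 29.3 in HFHFr-FA and 65.2 in HFHFr-F (-1.16). These were the 2 of 5 genes of that list at least 2-fold lower in HFHFr-FA, and in HFHFr-NA against HFHFr-N they had -0.36 and -0.42. Of 7 measured genes of glutathione supply, 0 reached 2-fold in either retinoic acid comparison. Gclc and Gclm, the subunits of the enzyme that starts glutathione synthesis, had -0.51 and -0.63 in HFHFr-FA against HFHFr-F and -0.80 and -0.84 in HFHFr-NA against HFHFr-N. Chac1, which degrades glutathione, had 3.70 in HFHFr-FA, 1.15 in HFHFr-NA, 1.46 in HFHFr-N, 2.10 in HFHFr-F and 0.714 in Control. It was higher than in Control in HFHFr-FA (2.37), HFHFr-F (1.56) and HFHFr-N (1.03), and its log2 ratio was 0.81 for HFHFr-FA against HFHFr-F. Of 9 genes of sulfate donor supply and desulfation, 0 reached 2-fold in any of the 7 comparisons.

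Among 13 transferases that add other groups, Nnmt, which methylates nicotinamide, had 118 in HFHFr-FA, 329 in HFHFr-NA, 124 in HFHFr-N, 43.4 in HFHFr-F and 154 in Control. It was the one gene of that list at least 2-fold apart with retinoic acid, higher by 1.45 on the HFHFr diet and by 1.41 on the normal diet. The shares of all genes at least 2-fold higher were 2.72% and 1.53%. In HFHFr-F against Control, Nnmt had -1.83, Gnmt, a glycine methyltransferase, -1.07 and Hnmt, a histamine methyltransferase, 1.12. Of the 8 export pump genes, Abcb1a was the one at least 2-fold apart in HFHFr-FA against HFHFr-F, at -1.73, where 2.87% of all genes were lower. Abcc2, a main pump for conjugates into bile, had -0.34. In HFHFr-F against Control 1 of the 8 was at least 2-fold higher, against 5.46% of all genes. In HFHFr-FA against Control 1 was higher, against 4.49% of all genes. In HFHFr-N against HFHFr-F 1 of the 8 was at least 2-fold lower, against 3.68% of all genes. The 14 regulators, among them Nfe2l2 (NRF2), Nr1i3 (CAR), Nr1i2 (PXR) and Ahr, had 0 genes past 2-fold in any of the 7 comparisons.

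Marker targets of those regulators had 2 of 9 measured genes lower in HFHFr-FA than in HFHFr-F, where 2.87% of all genes were lower. Nqo1, a quinone reductase induced by NRF2, had 0.980 in HFHFr-FA and 2.81 in HFHFr-F (-1.52), and Cyp3a11, a cytochrome P450 induced by PXR, had 23.5 in HFHFr-FA and 85.0 in HFHFr-F (-1.85). In HFHFr-NA against HFHFr-N, Cyp3a11 had -1.21 and was the one gene past 2-fold, where 1.36% of all genes were lower. In HFHFr-F against Control, Hmox1, a heme-degrading enzyme, had 1.70, Nqo1 1.01 and Cyp3a11 -1.70. In HFHFr-N against HFHFr-F, Cyp3a11 was higher, at 1.54, and Hmox1 was at least 2-fold lower. The median of the list was -0.69 for HFHFr-FA against HFHFr-F and -0.54 for HFHFr-NA against HFHFr-N.

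Promoter sequence of 300 bases around the gene start was at hand in RefSeq (GRCm38.p6) for 44 of the 49 genes and was searched on both strands. The antioxidant response element core TGACNNNGC was found in the promoters of 4 of these genes, Gsta3, Gstm5, Gstm7 and Mgst1, and in a promoter of 14.0% of all 27025 genes. None of the 11 genes with a promoter that were at least 2-fold lower in HFHFr-FA than in HFHFr-F held it in this window. With a share of 14.0% among all genes, finding none among 11 says little, and sequence beyond the window was not searched.

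Markers of other cell types and states moved with some of these comparisons, and their part in the results was not tested. Counts are of genes at least 2-fold apart, and each sum is the scaled signal over the markers of a list that were well above background in that pool. Among all genes, 5.46% were higher and 3.21% lower in HFHFr-F against Control. The same shares were 2.72% and 2.87% in HFHFr-FA against HFHFr-F, and 1.53% and 1.36% in HFHFr-NA against HFHFr-N. In HFHFr-N against HFHFr-F 3.68% of all genes were lower.

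In HFHFr-F against Control, 6 of 9 lipid-associated macrophage markers were higher, with a sum of 134 in HFHFr-F and 78.1 in Control. Of the 9 entries of the Kupffer cell and macrophage list 3 were higher, with 135 in HFHFr-F and 70.0 in Control. Adgre1 and Emr1 in that list name the same gene, so it entered the counts and sums more than once. Of 7 stellate cell and fibroblast markers 3 were higher, with 104 in HFHFr-F and 71.5 in Control. Of 5 cholangiocyte markers measured 2 were higher, with 2.09 in HFHFr-F and 1.45 in Control, and 3 of these 5 were lower in HFHFr-N than in HFHFr-F. Of 8 periportal hepatocyte markers 3 were lower, with 554 in HFHFr-F and 878 in Control, and of 9 pericentral markers 2 were higher and 1 was lower. Of 9 markers typical of male liver 5 were lower, with 1475 in HFHFr-F and 2255 in Control. Of 8 markers typical of female liver 4 were higher and 1 was lower, with a median log2 ratio of 0.62 and sums of 899 in HFHFr-F and 946 in Control.

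In HFHFr-FA against HFHFr-F, 3 of 9 lipid-associated macrophage markers were lower, with 88.1 in HFHFr-FA and 134 in HFHFr-F. Of the 9 entries of the Kupffer cell and macrophage list 1 was higher. Of 4 erythroid markers 2 were lower, with 228 in HFHFr-FA and 551 in HFHFr-F. Of 8 stellate cell and fibroblast markers 2 were lower, with 106 in HFHFr-FA and 104 in HFHFr-F. Of 9 pericentral markers 2 were lower, with 610.1 in HFHFr-FA and 760 in HFHFr-F, and 1 of 8 periportal markers was lower. Of 9 markers typical of male liver 4 were higher, with 1594 in HFHFr-FA and 1475 in HFHFr-F, and of 8 typical of female liver 3 were lower, with 331 in HFHFr-FA and 899 in HFHFr-F. Of 4 T and NK cell markers 1 was higher, and 0 of 5 cholangiocyte and 0 of 7 endothelial markers reached 2-fold. Cfd, the 1 adipocyte marker measured, was higher. The other markers of that list, Adipoq, Lep, Plin1 and Retn, were not well above background on any array.

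In HFHFr-NA against HFHFr-N, 3 of 8 periportal hepatocyte markers were higher, with 1073 in HFHFr-NA and 698 in HFHFr-N, and 2 of 8 markers typical of female liver were lower, with 880.2 in HFHFr-NA and 1176 in HFHFr-N. Of 9 markers typical of male liver 1 was lower, as was Cfd, the 1 adipocyte marker measured. None of the measured macrophage, stellate, cholangiocyte, endothelial, erythroid or pericentral markers reached 2-fold in that comparison.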

How the data were processed

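Each pool was hybridised in 1 colour (Cy3) to an Agilent whole mouse genome array with 43379 non-control spots, per the labels and file headers. Per the file headers, Feature Extraction 10.5.1.1 subtracted background and removed spatial trends to give the processed intensity of each spot, and the deposited files hold it before any scaling from array to array. The authors' value table holds a ratio on a linear scale, the processed intensity over 1 constant per array, as setting its columns against the scanner values showed, so its direction is that of the signal and it is not centred across arrays. Its column medians were 0.0721 in HFHFr-FA, 0.0744 in HFHFr-NA, 0.0738 in HFHFr-N, 0.0675 in HFHFr-F and 0.0700 in Control.

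Outlier-marked spots were left out, log2 intensity minus the array's 75th percentile was averaged per probe, and the brightest probe stood for a gene. If only 1 array of a pair measured a gene well above background, the other side was given a substitute. It was the larger of its own signal and that array's minimum among probes well above background, and the ratio is called a bound. Of the chosen probes 37 listed 1 gene in RefSeq (GRCm38.p6), 7 several and 5 none. Whether a probe lies in an exon or an untranslated region was not determined, because no genome was used here.

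The text names conjugation genes at least 2-fold apart, bounds and the 2 genes of each class with the widest range. It also names a fixed set of well-known genes (of which Sult2a1 was not analysed here) and many of the pathway genes at least 2-fold apart. Any other gene was added after its values were seen. The enzymes and lists were chosen with earlier results of these data known. Alternatives were median centring, cyclic loess, normexp (offset 50) with quantile normalization, the mean of all probes, 2 detection rules, the value table, and 2 added later. R 4.3.3 with limma 3.58.1 and Python 3.11.15 with pandas 2.3.3 were used. The counting was run on simulated data in which bright genes were changed by more than 2-fold. That run did not test ratios near 2-fold or the size of bounds.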

Additional observations from a re-analysis of the deposited data

How the results depend on the processing

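Of 391 values of the ratios of at least 2-fold among the named genes under the 9 kinds of alternative, 391 kept their direction and 370 also stayed at least 2-fold apart. These totals say little about robustness. The detection rules, the value table and the current symbols leave a ratio measured on both arrays unchanged or nearly so. The ratios were also picked for being at least 2-fold apart on these same arrays. With normexp and quantile normalization 31 of 45 such ratios stayed at least 2-fold apart, and with cyclic loess 40 of 45. The counts and medians below moved, and the cause was not tested except where fewer genes or probes entered. Median centring gave a median log2 ratio of 0.0403 for HFHFr-N against HFHFr-F and 6 lower genes in HFHFr-NA against Control. Cyclic loess gave 0.0340 for the same median and 10 lower genes in HFHFr-FA against Control. Normexp with quantile gave 7 lower genes in HFHFr-FA against HFHFr-F, 1 lower in HFHFr-N against HFHFr-F and 0 higher in HFHFr-FA against Control. The mean of all probes gave 2 lower genes in HFHFr-F against Control and a median of -0.62 in HFHFr-FA against Control. Genes well above background on both arrays gave 3 higher in HFHFr-F against Control, 0 lower in HFHFr-N against HFHFr-F and 0 higher in HFHFr-FA against Control. No detection filter gave 2 lower in HFHFr-F against Control, 1 lower in HFHFr-N against Control, and 1 higher and a median of -0.27 in HFHFr-NA against HFHFr-N. Of the alternatives chosen after seeing the data, probes naming 1 gene gave 2 lower in HFHFr-F against Control and a median of -0.32 in HFHFr-NA against HFHFr-N, and members by current symbol gave 2 higher in HFHFr-N against HFHFr-F. The deposited value table moved none of these counts or medians. Over all genes, the share of higher among called genes was 48.6% in HFHFr-FA against HFHFr-F, 35.2% with median centring and 39.5% with cyclic loess. In HFHFr-N against HFHFr-F it was 37.1%, 25.4% and 24.2% in the same order of settings, and in HFHFr-F against Control it was 62.9%, and 74.5% with cyclic loess. No paired analysis was possible because each group has 1 array. With 1 array per pool the number of arrays limits the precision. In HFHFr-F against Control, normexp with quantile gave 0.54 for Mgst2 and 1.24 for Sult1e1, which were bounds of 1.24 and 2.78.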

Other observations

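Some probes carry older gene names for genes that RefSeq now places in these families, and they were left out by the rule on names. The probe named 2810007J24Rik, now Sult2a8, a sulfotransferase, had a scaled signal of 156 in HFHFr-FA, 183 in HFHFr-NA, 212 in HFHFr-N, 105 in HFHFr-F and 190.0 in Control, and was well above background on all 5 arrays. HFHFr-F was the lowest pool and HFHFr-N the highest. The probe named BC021614, now Gstp3, had 0.588 in HFHFr-FA, 0.489 in HFHFr-NA, 0.579 in HFHFr-N, 0.791 in HFHFr-F and 0.400 in Control, with HFHFr-F the highest. The probes now under Sult2a2, Sult2a4 and Sult3a2 were not well above background on any array.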
